A study of Mus musculus with 12 samples.

Results

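The BMP signalling genes described here are 10 genes taken as a named set: the ligands Bmp4 and Bmp7, the receptor Bmpr1a, the inhibitor Smad6, and the response genes Id1, Id2, Id3, Id4, Msx1 and Msx2. The rule takes them by symbol and uses no measured value, but the set was chosen with earlier results of these data known. All 10 were found, among 39174 gene identifiers in the tables. They were measured by mRNA sequencing in 12 libraries from primary mouse motoneuron cultures of strain FVB. Every culture carried the human SMN2 transgene, and the mouse gene Smn1 was either absent (Smn-/-;SMN2, called SMA for spinal muscular atrophy) or intact (Smn+/+;SMN2, called control). Cultures received R-Roscovitine at 0.5 µM, an inhibitor of cyclin-dependent kinases, or were left untreated. The 4 groups of 3 libraries were thus SMA treated, control treated, SMA untreated and control untreated. The design asks how the genotypes differ and whether the compound changes expression in either of them.

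Bone morphogenetic proteins (BMPs) are secreted ligands of the TGF-beta family that bind pairs of type I and type II receptors. The receptors phosphorylate SMAD1, SMAD5 and SMAD9, which enter the nucleus with SMAD4 and switch on response genes such as the Id genes, the Msx genes and Smad6. In the spinal cord, BMPs from the roof plate pattern the dorsal neural tube, and BMP signalling later favours the formation of astrocytes. Id proteins lack a DNA-binding region and hold back neurogenic bHLH factors by binding their E protein partners, while Msx proteins are homeodomain repressors of dorsal and neural crest tissue.

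The labelled cell type was only partly reflected in its markers. Of 10 motoneuron markers, 9 were found in the tables, and 6 of these (Chat, Mnx1, Isl1, Isl2, Slc5a7 and Lhx3) stayed below 1 FPKM in all 12 libraries. The 10 neuronal markers summed to 808 to 1019 FPKM in SMA treated and 865 to 1281 FPKM in control treated libraries. Untreated, they summed to 689 to 818 FPKM in SMA and 816 to 1186 FPKM in control libraries. Vim, a filament gene of progenitors, glia and fibroblasts alike, was at 1852 to 3278 FPKM, and the progenitor filament gene Nes at 46.2 to 63.5 FPKM. Other genes of the progenitor list ranged from Hes5, at 2.95 FPKM or less, to Fabp7, at 165 to 854 FPKM. Smn1, the gene removed in SMA mice, followed the labels: it stood at 6.82, 5.04 and 7.35 FPKM in SMA treated libraries against 45.1, 38.2 and 39.2 FPKM in control treated libraries. Untreated, it was 6.11, 7.19 and 8.58 FPKM in SMA and 30.9, 41.2 and 51.2 FPKM in control libraries. Depth, read from the steps between low FPKM values, was 19.5 to 28.7 M reads per library, with a mean of 22.2 ± 2.04 M in SMA and 26.5 ± 1.99 M in control libraries (SD, n = 6 each). The share of FPKM held by the feature Gm26924 was 3.57% to 5.05% in SMA treated against 2.62% to 3.39% in control treated libraries, and 4.52% to 4.85% in SMA untreated against 2.83% to 3.81% in control untreated libraries. The part of depth or of this share in the results below was not tested. The labels do not state whether replicate libraries are separate cultures, and the p-values therefore measure the spread between these libraries.

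The 10 genes spanned a wide range of levels, given here as FPKM, which is normalised for transcript length. Averaged over the 12 libraries, Id2 was highest at 62.1 FPKM. Bmpr1a followed at 35.1, Id1 at 33.97, Id4 at 19.1, Id3 at 15.8 and Bmp4 at 14.2 FPKM. Msx2 averaged 5.82, Smad6 4.75, Bmp7 2.77 and Msx1 1.75 FPKM. Id2 exceeded Bmpr1a in 12 of 12 libraries and Bmp4 exceeded Msx2 in 12 of 12. Some neighbours did not separate: Id3 exceeded Bmp4 in 6 of 12 libraries, and Msx2 exceeded Smad6 in 6 of 12. The ranges over libraries overlapped for each pair of neighbours. Msx2 varied most, 9.88-fold between its lowest and highest library, while Id1, Id2 and Bmpr1a each varied about 2.0-fold. Msx1 reached 1 FPKM in 10 of 12 libraries, and Cufflinks' own interval around its values extended 19.1% to 31.2% to each side, against 4.005% to 5.56% for Id2. All 10 genes passed the filter of at least 1 FPKM in at least 3 libraries that 15114 genes passed.

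**Figure D1:**
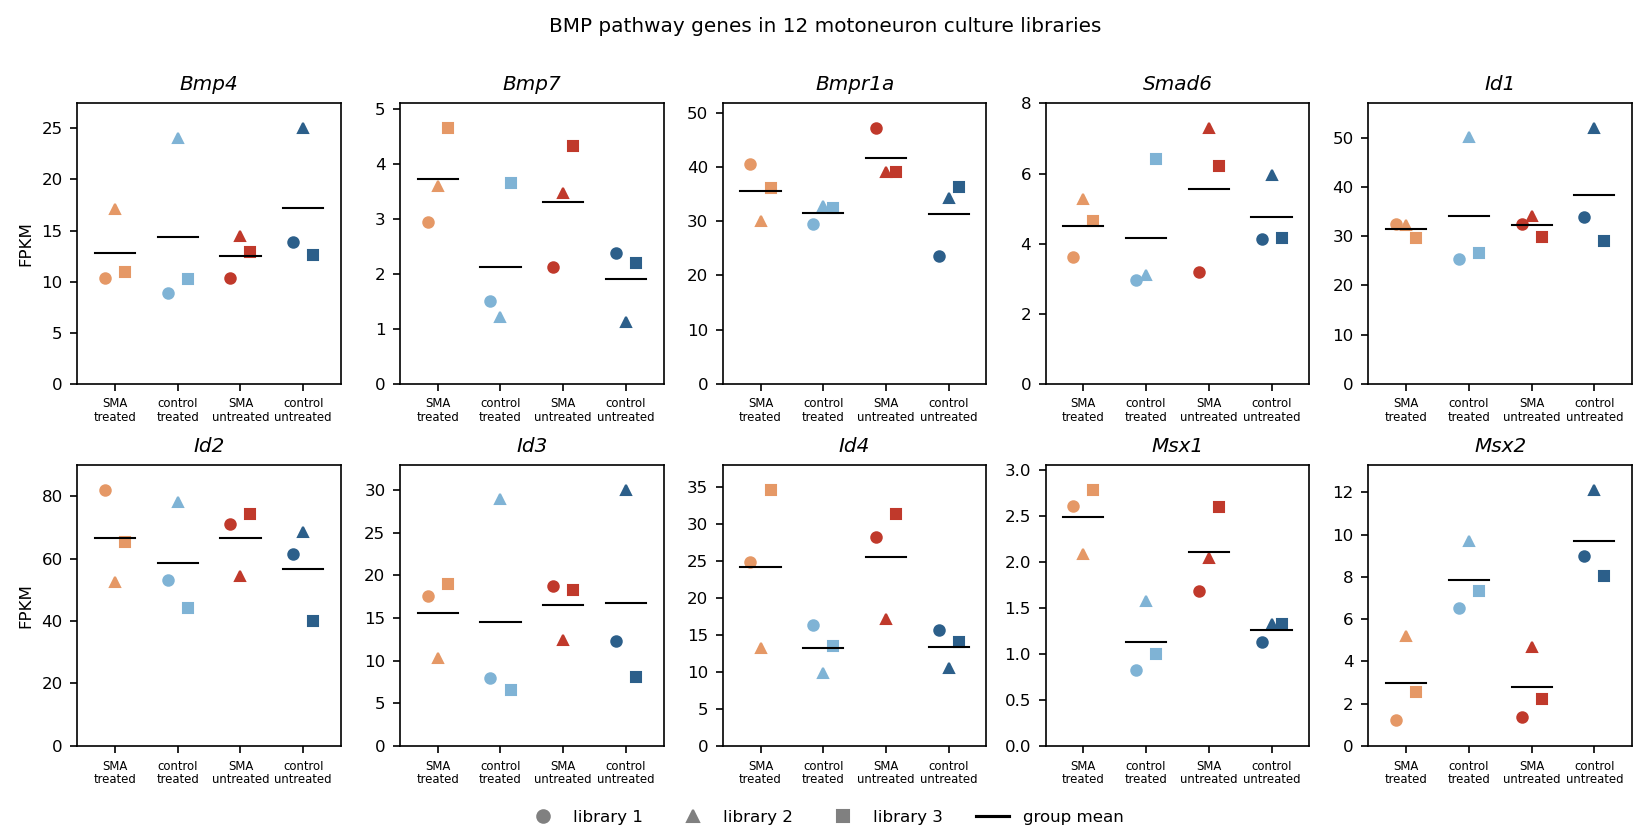
FPKM of the 10 BMP signalling genes (y axis of each panel, from 0) in the 4 groups (x axis), with 1 symbol per library, its shape giving the library number, and a line at the group mean. Msx2 lies lower in the SMA groups than in the control groups without overlap, Msx1 lies higher without overlap, and Id1, Id3 and Bmp4 have 1 high control library, number 2, in each treatment.

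Averaged over treatments, the response gene Msx2 was lower in SMA cultures, and the response genes Msx1 and Id4 were higher, with adjusted p under the threshold when all 12 libraries count as independent. The ligand Bmp7 differed by 0.64 (log2), as much as Msx1, without passing the test, and Id1, Id2, Id3, Bmp4, Bmpr1a and Smad6 did not pass either. In limma's test of log2(scaled FPKM + 1), adjusted over all 15114 genes, these 3 of 10 genes passed an adjusted p of 0.05, against 4.42% of all genes tested. By direction, 2 of the 10 rose, against 2.79% of all genes, and 1 fell, against 1.63%. The set was chosen with earlier results of these data known, so these shares are no independent support. Treated libraries, however, resembled the untreated library of the same genotype and number. With each such pair as a random effect, none of the 10 genes passed, nor did any when each pair entered as 1 mean. Over all 15114 genes these fits called 3 (0.0198%) and 1 (0.00662%). The median difference of the 10 genes was 0.27 (log2, SMA minus control), with 7 higher and 3 lower, against a median of -0.01 over all genes.

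Msx2, a homeodomain repressor and a target of BMP signalling in limb, skull and dorsal neural tube, was at 1.22, 5.20 and 2.56 FPKM in SMA treated libraries, against 6.52, 9.68 and 7.31 FPKM in control treated libraries. Untreated, it was at 1.38, 4.68 and 2.23 FPKM in SMA and 8.99, 12.1 and 8.02 FPKM in control libraries. All 6 SMA libraries lay below all 6 control libraries, and SMA library 2 was the highest SMA library in both treatments. Genotypes separated downward in both treatments in 2.83% of all genes, and Msx2 was the only one of the 10 that did. The ratio of control to SMA means was 2.62 treated and 3.51 untreated. On the log2 scale Msx2 differed by -1.40 ± 0.25 (SE) averaged over treatments, with a limma adjusted p of 0.0191. With the pairs as a random effect the adjusted p was 0.0526, and with 1 mean per pair 0.179. Leaving out both libraries of a number was tried after the values were seen. The difference was -1.23 (adjusted p = 0.0635) without both control libraries numbered 2 and -1.48 (0.0589) without both numbered 1. It was -1.75 without both SMA libraries numbered 2, which were the highest SMA libraries, so that removal could only widen it.

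Msx1, the paralogue of Msx2 with a similar DNA-binding homeodomain, went the other way. It was at 2.61, 2.09 and 2.78 FPKM in SMA treated libraries, against 0.829, 1.58 and 0.998 FPKM in control treated libraries. Without treatment it was at 1.69, 2.05 and 2.60 FPKM in SMA and 1.13, 1.32 and 1.32 FPKM in control libraries. Within each treatment the 3 SMA libraries lay above the 3 control libraries, which 2.46% of all genes did in both treatments. The difference was 0.60 ± 0.13 (log2, SE; limma adjusted p = 0.0281), and the adjusted p was 0.0818 with the pairs as a random effect and 0.188 with 1 mean per pair. These are low levels, where the added pseudocount of 1 shrinks a fold change: the plain ratio of SMA to control means was 2.19 treated and 1.68 untreated.

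As the paralogues differed in opposite directions, their ratio separated the genotypes widely, a quantity chosen after the values were seen and given without a test. Msx2 divided by Msx1 was 0.469, 2.49 and 0.921 in SMA treated libraries, against 7.86, 6.12 and 7.32 in control treated libraries. Untreated, it was 0.819, 2.29 and 0.855 in SMA and 7.94, 9.12 and 6.06 in control libraries. In 4 of 6 SMA libraries Msx1 was thus the more abundant of the pair, while in all 6 control libraries Msx2 was. Over each genotype the ratio averaged 1.31 ± 0.855 in SMA and 7.40 ± 1.18 in control libraries (SD, n = 6 each).

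Id4, the Id family member with the most prominent expression in neural stem cells and astrocytes, was at 24.8, 13.2 and 34.5 FPKM in SMA treated libraries, against 16.4, 9.88 and 13.5 FPKM in control treated libraries. In untreated libraries it was at 28.2, 17.2 and 31.3 FPKM in SMA and 15.7, 10.5 and 14.0 FPKM in control libraries. The genotypes did not overlap when untreated. When treated, SMA library 2 lay below 2 of the 3 control libraries. The averaged difference was 0.83 ± 0.22 (log2, SE), at the edge of the threshold with a limma adjusted p of 0.0497. The adjusted p was 0.0987 with the pairs as a random effect and 0.227 with 1 mean per pair. The difference was 0.68 (adjusted p = 0.145) without both control libraries numbered 2 and 0.96 (0.0858) without both numbered 1. It was 1.15 without both SMA libraries numbered 2, again a removal that could only widen it, since Id4 was lowest there among SMA libraries.

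The 3 calls rested on several single libraries. Leaving out SMA treated library 1 or 3, control treated library 1, or SMA untreated library 1 or 3 took the count of called genes to 0. Leaving out control untreated library 2 left only Msx2 called. In those fits the whole table lost calls as well, to between 6 and 84 genes. The differences themselves moved little when any 1 of the 12 libraries was left out: Msx2 stayed between -1.59 and -1.22, Msx1 between 0.55 and 0.68 and Id4 between 0.69 and 1.02 (log2). Within a single treatment no gene of the 10 was called, and 1 of 15114 genes was (0.00662% in each treatment). At an unadjusted p of 0.05, 4 of the 10 were past the threshold with treatment and 4 without, against 12.9% of all genes with treatment and 14.0% without. Averaged over treatments it was 5 of the 10, against 23.0% of all genes.

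**Figure D2:**
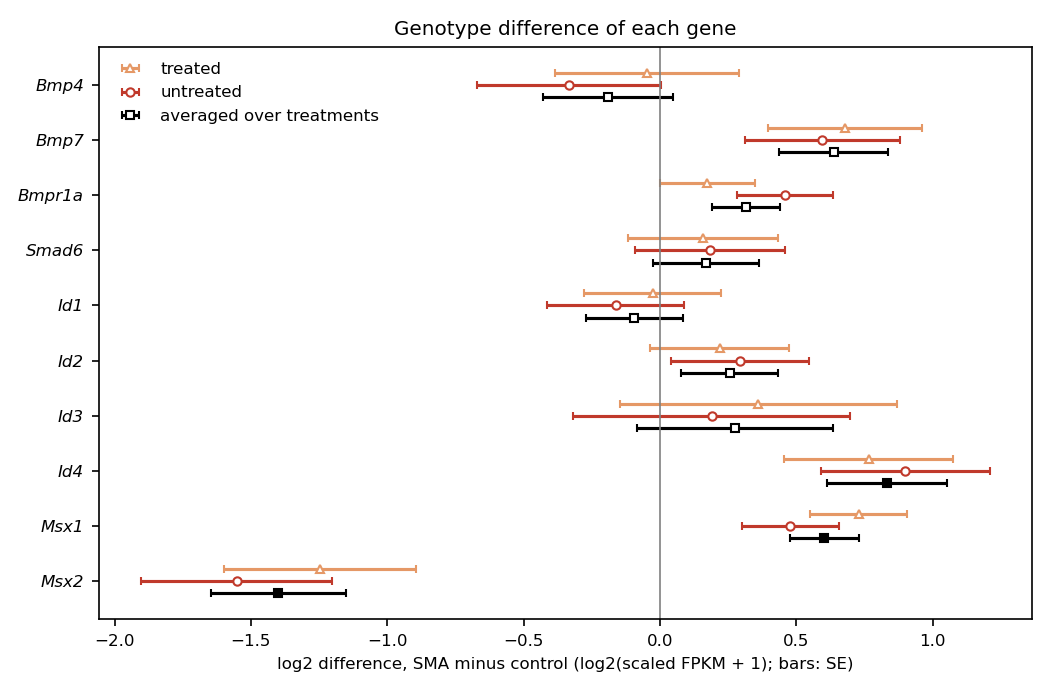
Genotype difference of each gene (x axis, SMA minus control on the log2(scaled FPKM + 1) scale), with bars of 1 SE, in treated, untreated and all libraries; filled symbols mark a limma adjusted p under 0.05. Msx2 lies at -1.40 and Id4 and Msx1 at 0.83 and 0.60 in the averaged comparison, the 3 filled symbols, while Id1, Id3, Bmp4 and Smad6 lie within about 1 SE of 0.

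RefSeq promoters (build GRCm38.p6) matched 8 of the 10 genes. The 250 bases before the annotated start are shown for the response genes Msx1 and Id4, which were higher in SMA cultures, and for the ligand Bmp4, whose levels followed 1 control library. Msx1 lies on the minus strand of chromosome 5, with the window at chr5:37824586-37824835. The Id4 window is on the plus strand at chr13:48260866-48261115, and that of Bmp4 on the minus strand at chr14:46390670-46390919. Capitals mark GGCGCC, a GC-rich element that SMAD1 and SMAD5 can bind.
Msx1: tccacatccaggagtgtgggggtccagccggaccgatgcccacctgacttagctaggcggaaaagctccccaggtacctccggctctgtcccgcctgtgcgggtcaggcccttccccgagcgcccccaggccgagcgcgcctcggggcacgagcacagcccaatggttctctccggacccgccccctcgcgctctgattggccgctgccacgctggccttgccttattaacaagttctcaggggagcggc
Id4: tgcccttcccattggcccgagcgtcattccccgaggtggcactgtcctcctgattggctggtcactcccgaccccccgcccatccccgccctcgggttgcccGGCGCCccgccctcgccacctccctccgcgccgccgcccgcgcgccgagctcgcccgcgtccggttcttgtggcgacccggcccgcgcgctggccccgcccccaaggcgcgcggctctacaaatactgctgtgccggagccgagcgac
Bmp4: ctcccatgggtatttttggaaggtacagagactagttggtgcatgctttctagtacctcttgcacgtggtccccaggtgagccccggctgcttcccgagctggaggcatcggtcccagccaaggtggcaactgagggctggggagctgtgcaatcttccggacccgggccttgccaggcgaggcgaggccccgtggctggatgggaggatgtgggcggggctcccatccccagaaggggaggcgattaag
GGCGCC was searched on both strands, and it reads the same on each. It occurred once in the Id4 window, 148 bases before the start, and not in the windows of Msx1 or Bmp4. Of the windows not shown, those of Bmpr1a and Id2 held GGCGCC once each, and those of Id3, Msx2 and Smad6 did not. Of 27025 RefSeq promoters of the same length, 9.54% held it. The E-box CANNTG, searched on both strands, occurred 1 time in the Msx1 window, 3 times in that of Bmp4 and not in that of Id4, against 66.0% of all promoters with at least 1. CAGAC, a SMAD4 element held by 42.1% of promoters, and TAATTG, an Msx homeodomain core held by 7.34%, were not among the letters of these 3 windows on either strand.

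Among the Id genes, Id4 was the only one called. Id2, which together with the other Id proteins restrains bHLH factors, was at 81.8, 52.6 and 65.2 FPKM in SMA treated and 53.0, 78.1 and 44.2 FPKM in control treated libraries. Untreated, it was at 71.2, 54.4 and 74.4 FPKM in SMA and 61.5, 68.5 and 40.2 FPKM in control libraries. The genotypes overlapped in both treatments, and the averaged difference was 0.26 ± 0.18 (log2, SE; limma adjusted p = 0.422). The 95% interval ran from -0.13 to 0.64.

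Id1, the classical immediate target of BMP-activated SMADs, was at 32.5, 32.2 and 29.6 FPKM in SMA treated libraries, against 25.4, 50.2 and 26.5 FPKM in control treated libraries. Without treatment it was at 32.5, 34.1 and 29.9 FPKM in SMA and 33.8, 51.9 and 29.1 FPKM in control libraries. The SMA libraries lay close together, and the control libraries were split by library 2, the highest of all in both treatments. The averaged difference was -0.09 ± 0.18 (log2, SE; limma adjusted p = 0.799), with a 95% interval from -0.48 to 0.29.

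Id3, a near relative of Id1 in expression and function, had the same control library standing apart. It was at 17.6, 10.3 and 19.0 FPKM in SMA treated libraries, against 7.94, 28.9 and 6.61 FPKM in control treated libraries. Untreated, SMA libraries had 18.7, 12.4 and 18.2 FPKM and control libraries 12.4, 29.9 and 8.04 FPKM. The averaged difference of 0.28 ± 0.36 (log2, SE) had a limma adjusted p of 0.697 and a 95% interval from -0.50 to 1.05. Without both control libraries numbered 2 it was 0.85 ± 0.20, with a limma adjusted p of 0.0659. Those libraries had the highest Id3 of all, so that removal could only raise the difference and is no support for it. No call resulted either way.

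As shares of the summed FPKM of the 4 Id genes, Id2 took 47.7% ± 2.77 in SMA and 47.2% ± 3.48 in control libraries (SD, n = 6 each). Id4 took 17.5% ± 4.06 in SMA and 11.9% ± 4.52 in control libraries, ranges that overlapped between 12.2% and 15.9%. Id1 took 23.4% ± 4.65 in SMA and 29.2% ± 2.83 in control libraries. The Id3 share was 11.4% ± 1.23 in SMA and 11.6% ± 5.02 in control libraries. The Id sum itself overlapped, at 108 to 157 FPKM in SMA and 90.7 to 167 FPKM in control libraries. These shares carry no test.

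**Figure D3:**
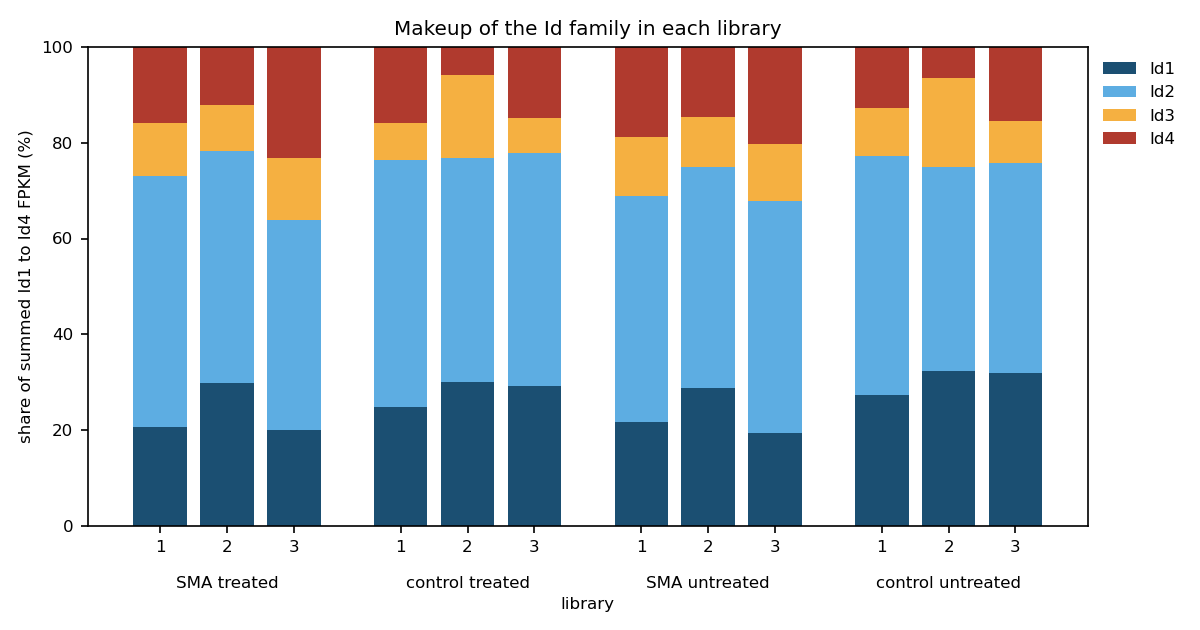
Share of the summed FPKM of Id1 to Id4 (y axis, %) that each gene takes in each library (x axis, libraries 1 to 3 of the 4 groups). Id4 takes 12.2% to 23.3% in SMA and 5.92% to 15.9% in control libraries, and Id2 takes between 42.6% and 52.2% in all 12.

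The ligands behaved differently from each other. Bmp4, a roof plate and mesenchymal ligand, was at 10.3, 17.2 and 10.97 FPKM in SMA treated libraries, against 8.92, 24.1 and 10.3 FPKM in control treated libraries. In untreated libraries it was at 10.4, 14.4 and 12.9 FPKM in SMA and 13.9, 25.0 and 12.6 FPKM in control libraries. The genotypes overlapped, with control library 2 highest in both treatments. The averaged difference was -0.19 ± 0.24 (log2, SE; limma adjusted p = 0.683), with a 95% interval from -0.70 to 0.32. Without both control libraries numbered 2, a removal that could only raise it, the difference was 0.18.

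Bmp7, a ligand that also signals in the dorsal cord and often pairs with other BMPs as a heterodimer, was at 2.95, 3.59 and 4.65 FPKM in SMA treated and 1.50, 1.21 and 3.65 FPKM in control treated libraries. Untreated, it was at 2.13, 3.48 and 4.32 FPKM in SMA and 2.39, 1.12 and 2.21 FPKM in control libraries. Treated control library 3 lay above 2 of the 3 treated SMA libraries, and untreated control libraries 1 and 3 lay just above the lowest untreated SMA library. The averaged difference was 0.64 ± 0.20 (log2, SE) and missed the threshold, with a limma adjusted p of 0.0848. It was called in 3 of 26 alternative fits.

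The receptor and the inhibitor did not pass. Bmpr1a, a type I receptor for BMP2 and BMP4, was at 40.5, 30.1 and 36.1 FPKM in SMA treated libraries, against 29.4, 32.8 and 32.5 FPKM in control treated libraries. Without treatment it was at 47.1, 39.0 and 39.1 FPKM in SMA and 23.6, 34.3 and 36.4 FPKM in control libraries. Untreated SMA libraries lay above untreated control libraries, a separation found for 4 of the 10 genes (also Msx1, Msx2 and Id4) and for 20.2% of all genes. With treatment it was found for 2 of the 10 genes, Msx1 and Msx2, against 17.7% of all genes. The averaged Bmpr1a difference was 0.32 ± 0.12 (log2, SE; limma adjusted p = 0.151). Smad6, which blocks BMP receptors and is itself induced by BMP, was at 3.62, 5.27 and 4.64 FPKM in SMA treated and 2.96, 3.11 and 6.43 FPKM in control treated libraries. In untreated libraries it was at 3.20, 7.29 and 6.22 FPKM in SMA and 4.13, 5.97 and 4.15 FPKM in control libraries. The genotypes overlapped in both treatments, with an averaged difference of 0.17 ± 0.19 (log2, SE; limma adjusted p = 0.647) and a 95% interval from -0.25 to 0.59.

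**Figure D4:**
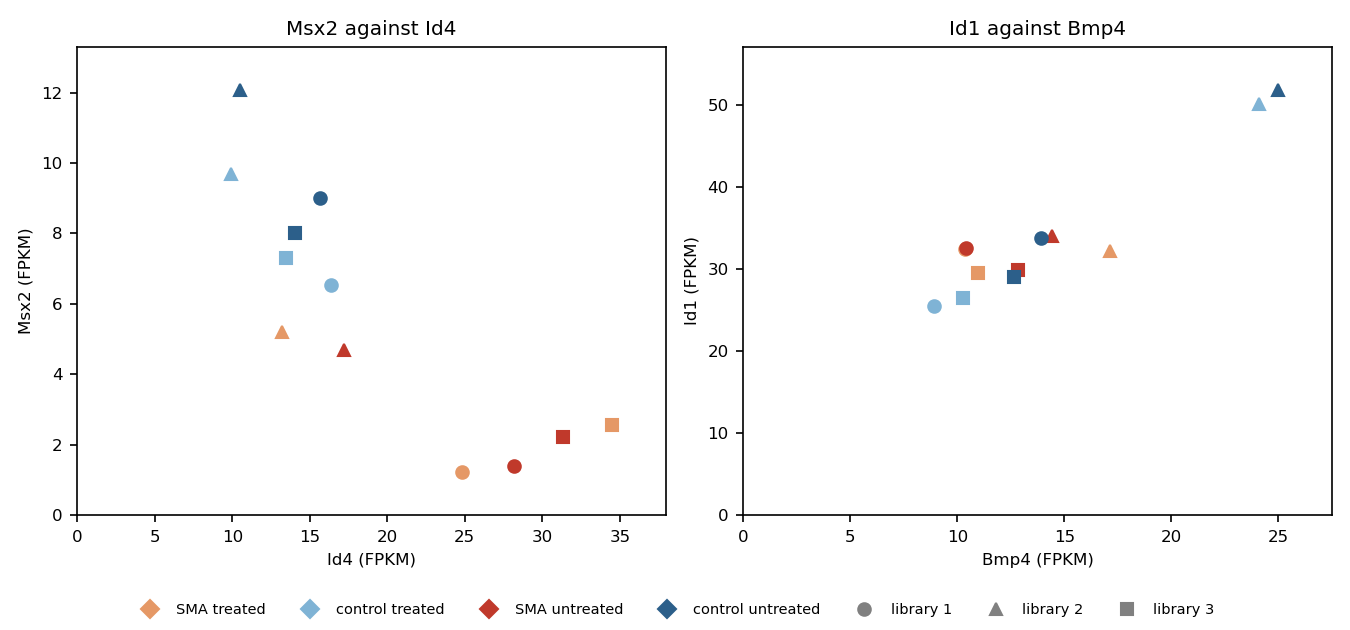
Left, Msx2 (y axis, FPKM) against Id4 (x axis, FPKM), and right, Id1 (y axis, FPKM) against Bmp4 (x axis, FPKM), with 1 symbol per library, coloured by group and shaped by library number. SMA libraries 1 and 3 lie at 24.8 to 34.5 FPKM of Id4 and 1.22 to 2.56 FPKM of Msx2, SMA library 2 lies nearer the control libraries, and control library 2 stands apart at the upper right of the Id1 and Bmp4 plot.

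Some markers of other cell types also differed between the genotypes. Astroglial markers summed to 375, 234 and 476 FPKM in SMA treated libraries, against 147, 176 and 208 FPKM in control treated libraries. Untreated, the sums were 364, 273 and 457 FPKM in SMA and 207, 163 and 205 FPKM in control libraries. SMA library 2, with the lowest Id4 and the highest Msx2 of the SMA libraries, also had the lowest astroglial sum of the SMA libraries in both treatments. Control libraries were split. Untreated, control library 2 had the lowest astroglial sum, the lowest Id4 and the highest Msx2. Treated, control library 1 had the lowest astroglial sum but the highest Id4 and the lowest Msx2. Gfap, the astrocyte filament, was at 2.77, 0.469 and 1.90 FPKM in SMA treated and at 0.129 FPKM or less in control treated libraries. Of 11 astroglial markers tested, of 12 listed, 10 were higher in SMA cultures, with a median of 0.98 (log2), and 6 were called higher by the averaged limma test, against 2.79% of all genes. With the pairs as a random effect 1 of the 6 was called, against 0.0198% of all genes. With 1 mean per pair none was, against 0.00662% of all genes. S100b stayed below 1 FPKM in all libraries. Of 12 neural progenitor markers, 11 were higher, with a median of 0.77, and the 7 called became 0 in both fits with pairs. Of 10 neuronal markers none was called and none was higher, with a median of -0.30. Markers of the oligodendrocyte lineage summed to 67.4, 14.7 and 42.9 FPKM in SMA treated and 10.1, 12.8 and 10.2 FPKM in control treated libraries, mostly through Olig1, which differed by 2.34 ± 0.41 (log2, SE; limma adjusted p = 0.0191). Of 4 markers of this lineage tested, of 7 listed, 2 were higher and 2 lower, and Olig1 alone was called. Of 3 motoneuron markers tested, 1 was higher and 2 lower. Chodl alone among them was called, at -1.08 ± 0.24 (limma adjusted p = 0.0337). With the pairs as a random effect neither Olig1 nor Chodl was called. Their part in the differences of Msx2, Msx1 and Id4 was not tested, and in these bulk libraries fewer cells of a type and less RNA per cell cannot be told apart.

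The collagen genes Col1a1 and Col1a2 followed the other split. Col1a1, the main fibroblast collagen, was at 63.2 FPKM treated and 63.1 FPKM untreated in control library 2, and between 7.10 and 18.1 FPKM in the other 10 libraries. Col1a2, its partner chain, was at 21.9 FPKM treated and 21.7 FPKM untreated there, against 5.15 FPKM or less elsewhere. The 8 listed markers of fibroblasts and meninges summed to 91.1 FPKM treated and 90.7 FPKM untreated in that library, mostly through these 2 genes, and to between 12.6 and 30.1 FPKM in the other 10. Other fibroblast markers did not follow: Dcn, Lum and Col3a1 peaked in SMA library 1, at 5.52, 3.46 and 2.67 FPKM treated and 5.27, 2.01 and 2.93 FPKM untreated. In control library 2 they were at 1.87, 0.0193 and 0.452 FPKM treated and 1.48, 0 and 0.489 FPKM untreated. Pdgfrb and Foxc1 stayed below 1 FPKM in all libraries. Id1, Id3 and Bmp4 had their highest values in control library 2, in both treatments, and the part of the cells behind these markers in those values was not tested.

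The genes most like each member over the 12 libraries, taken from the tested genes outside the set, differed from member to member. Msx2 was most like Ebp (Pearson r = 0.965), a sterol isomerase, and Fbln5 and Fgf18 followed at 0.960. Id4 was most like Spon1 (r = 0.980), Adcyap1r1 (0.979) and Ndrg2 (0.973). Msx1 was most like the homeobox gene Hoxa6 (r = 0.949) and the extracellular sulfatase Sulf2 (0.933). Id1 was most like 1500015O10Rik (r = 0.974) and Crip1 (0.955), Bmp4 like the focal adhesion gene Vcl (0.954), and Id3 like the integrin Itgav (0.947). Bmpr1a was most like Gpx8 (r = 0.971), Id2 like Pdlim4 (0.938), Bmp7 like the bicarbonate transporter Slc4a4 (0.944) and Smad6 like the uracil glycosylase Ung (0.947). These r describe 12 libraries that form 6 pairs and share genotype and depth, and they carry no p.

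No change of the 10 genes with R-Roscovitine passed the test. Limma called 0 of the 10 in SMA cultures, in control cultures, averaged over both, and for the interaction, where 0% of all genes were called in each. At an unadjusted p of 0.05 the 10 genes again gave 0 in each of these 4 comparisons, against 2.49% of all genes in SMA, 1.36% in control, 1.67% averaged and 2.05% for the interaction. Treated and untreated libraries overlapped for all 10 genes in both genotypes. Over all genes, 11.1% separated in SMA and 4.59% in control cultures, so for 10 genes none is near these shares. The averaged difference, treated minus untreated, ran from -0.19 ± 0.19 for Smad6 to 0.11 ± 0.20 for Bmp7 (log2, SE). These errors leave the pairs out of the model.

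The pairs of treated and untreated libraries allow a closer look at each gene. Id1 was lower in the treated library of all 6 pairs, by 0.04 to 0.35 in control pairs and by at most 0.07 in SMA pairs (log2). Bmp4, Id3 and Msx2 were lower in the treated library of 3 of 3 control pairs. In SMA pairs, Bmpr1a was lower in 3 of 3, and Msx1 and Bmp7 were higher in 3 of 3. These genes were picked for their agreement in sign. The share of all genes that agree in this way is not given, and the agreement carries no test. With the pairs as a fixed block the errors were smaller: the averaged Id3 difference was -0.18 ± 0.08 (SE), with a 95% interval from -0.37 to 0.01. The widest 95% interval was that of Smad6, from -0.55 to 0.16. Limma still called 0 of the 10 genes in that fit, and the lowest adjusted p was 0.701 in SMA, 0.929 in control and 0.802 averaged. The interaction was largest in size for Msx2, at 0.31 ± 0.16 in the fit with pairs (log2, SE, the SMA effect minus the control effect; limma adjusted p = 0.815).

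Other genes of the pathway did not lean one way. A list of 114 ligands, receptors, antagonists, SMADs, targets and bHLH partners, which leaves out the 10, had 77 genes past the filter. Averaged over treatments, 38 were higher and 39 lower in SMA cultures, with a median of -0.00 (log2), against -0.01 over all genes. Of 7 bHLH partners tested, 5 were higher and 2 lower, with a median of 0.26. The other roles had medians between -0.18 and 0.04. Limma called 11 of the 77, against 4.42% of all genes, of which 6 rose and 5 fell. With the pairs as a random effect or as 1 mean each, it called 0, against 0.0198% and 0.00662% of all genes. The list was drawn up with earlier results of these data known. Leaving out both control libraries numbered 2 also gave 0 calls, against 0.06% of all genes.

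Secreted antagonists and modulators held 5 of these 11 calls. Nog, encoding noggin, which traps BMP ligands, was at 8.05, 7.55 and 8.71 FPKM in SMA treated and 6.07, 5.18 and 7.29 FPKM in control treated libraries. Untreated, it was at 7.03, 8.47 and 8.69 FPKM in SMA and 3.37, 4.97 and 5.86 FPKM in control libraries. SMA libraries lay above control libraries within each treatment, with a difference of 0.54 ± 0.12 (log2, SE; limma adjusted p = 0.0343, and 0.102 with the pairs as a random effect). Grem1, encoding gremlin, another BMP trap, went the other way by -0.88 ± 0.18 (adjusted p = 0.0281, with pairs 0.0689), at 0.646, 1.36 and 0.383 FPKM in SMA treated and 2.77, 3.01 and 1.53 FPKM in control treated libraries. The matrix protein gene Smoc1, a modulator of BMP signalling, was higher by 1.15 ± 0.25 (adjusted p = 0.0315, with pairs 0.0689). It was at 7.78, 2.49 and 9.11 FPKM in SMA treated and 1.89, 2.22 and 2.13 FPKM in control treated libraries. Nbl1, a further antagonist, was higher by 0.72 ± 0.19 (adjusted p = 0.0468, with pairs 0.120). Bmp1, a metalloprotease that cleaves the antagonist chordin and is no BMP ligand, was higher by 0.64 ± 0.13 (adjusted p = 0.0255, with pairs 0.0647). Among the 18 tested in this role, 10 were higher and 8 lower.

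Of 11 other ligands tested, 4 were higher and 7 lower. Gdf15, a stress-induced ligand of the family, was the only one called, at -1.03 ± 0.21 (log2, SE; adjusted p = 0.0268, with pairs 0.0689). It stood at 1.08, 2.49 and 1.93 FPKM in SMA treated and 2.01, 5.28 and 4.81 FPKM in control treated libraries. The ligands with the highest levels were Tgfb2, Bmp6 and Tgfb3. Bmp6 was at 26.7 ± 2.56 FPKM in SMA treated and 20.6 ± 5.98 FPKM in control treated libraries (SD, n = 3 each), well above Bmp7. Bmp2 stayed below 1 FPKM in all 12 libraries. Of 13 receptors and co-receptors tested none was called, and Rgma, Rgmb and Acvr2a had the highest levels. The antagonist with the highest level was Fstl1, at 397 ± 14.9 FPKM in SMA treated and 371 ± 92.6 FPKM in control treated libraries (SD, n = 3 each), followed by Twsg1 and Fst.

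Of 14 SMADs and regulators, Smad9, a BMP receptor SMAD, was the only one called, at -0.55 ± 0.12 (log2, SE; limma adjusted p = 0.0337, with pairs 0.0987). It is a low gene, at 1.01, 1.48 and 1.01 FPKM in SMA treated and 2.78, 1.98 and 1.56 FPKM in control treated libraries. Among 14 other targets and dorsal genes, the dorsal zinc finger genes Zic2 and Zic5 were called lower, by -0.56 ± 0.12 and -0.63 ± 0.16. The bHLH repressor Hey2, also a Notch target, was called higher, by 0.71 ± 0.17. Their adjusted p with the pairs as a random effect were 0.0728, 0.112 and 0.0986.

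**Figure D5:**
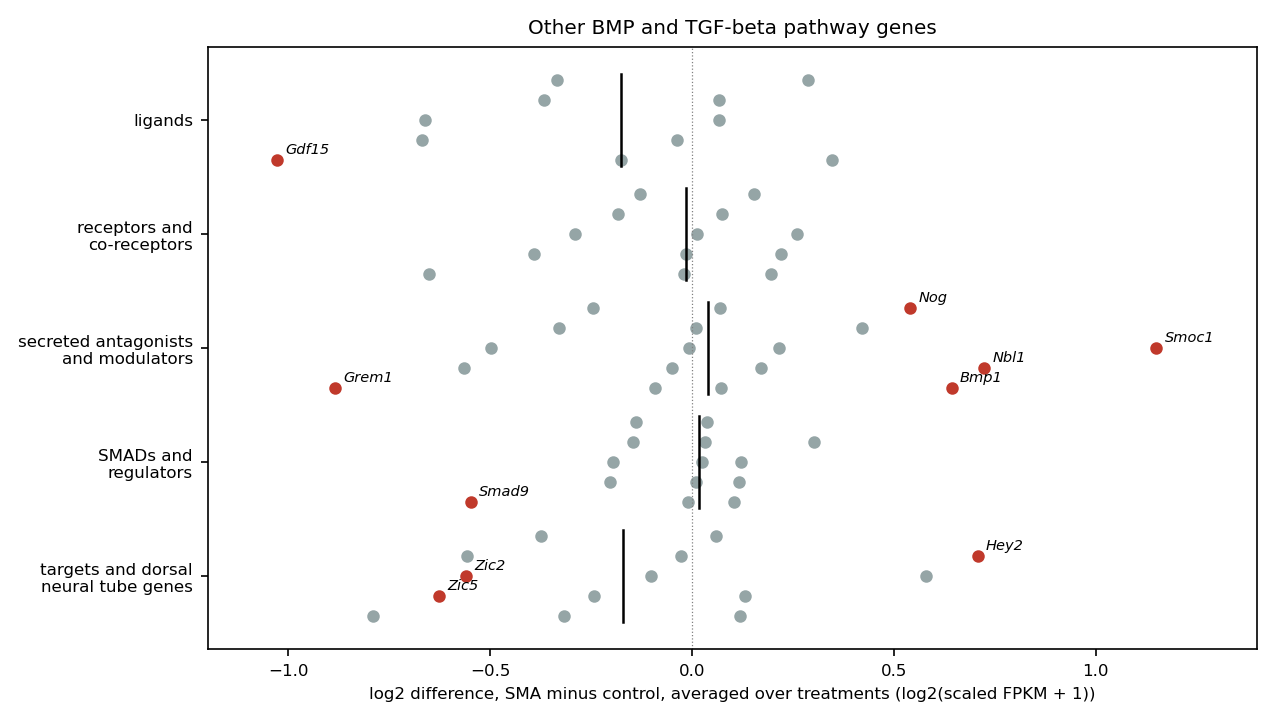
Averaged genotype difference (x axis, SMA minus control, log2(scaled FPKM + 1)) of tested BMP and TGF-beta pathway genes outside the 10, for 5 roles (y axis, spread for legibility), with a black bar at each role's median and named red points for a limma adjusted p under 0.05. The 10 named genes lie on both sides of 0, from -1.03 for Gdf15 to 1.15 for Smoc1. The medians of these 5 roles lie between -0.18 and 0.04, and the bHLH partners are not shown.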

How the data were processed

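The authors deposited FPKM per gene, fragments normalised for transcript length and depth, made with Cufflinks 2.2.1 on GRCm38 after FastQC 0.10.1 and Trim Galore 0.4.0, per the submitters' processing notes. The sources used here do not give alignment or strand settings, and Id4, Bmp4 and Bmpr1a overlap genes on the opposite strand, all at 1.53 FPKM or less where measured, whose reads cannot be told apart from theirs without strand. The deposited FPKM carry no counts. Low values fell on whole multiples of 1 read within 0.01 reads for 36.3% to 39.9% of them, which gave the depth but no count test. The 19 identifiers on several lines were summed.

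FPKM were scaled by median-of-ratios factors and fitted as log2(scaled FPKM + 1), which understates changes of low genes, with limma 3.58.1 in R 4.3.3 (trend, two-sided) over 4 group means and 12 libraries. Genes with at least 1 FPKM in at least 3 libraries were tested, and p-values were Benjamini-Hochberg adjusted over all 15114, with 0.05 as the threshold. Levels in the text are unscaled FPKM. The rise or fall of a gene always means SMA relative to control, or treated relative to untreated. Promoters came from RefSeq, with windows that overlap an annotated exon not shown. The fit was tested on simulated data in which libraries varied independently, so that test does not cover the pairs of treated and untreated libraries. Python 3.11.15, pandas 2.3.3 and matplotlib 3.10.9 handled tables and figures.

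The members and lists were chosen with earlier results of these data known. By rule, the named genes are the 10 members, Smn1, the pathway genes called in any comparison, the 3 ligands, receptors and antagonists with the highest levels, and the genes most correlated with each member. Of the pathway list, 1 called gene is not reported here by name or value. Bmp2 and the single cell type markers were named after their values were seen. Deviations from the group means of treated and untreated libraries with the same number correlated at 0.545, 0.503 and 0.417 in SMA and at 0.222, 0.574 and 0.312 in control cultures, so the numbers pair these libraries. Between genotypes the same numbers correlated at 0.246, 0.0447 and 0.280 in treated libraries, each above the unlike numbers, which reached at most 0.00556. Untreated, they correlated at -0.0535, 0.145 and -0.0177, and only number 2 was above its unlike numbers. Whether a number marks something shared by the genotypes is thus not settled.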

Additional observations from a re-analysis of the deposited data

How the results depend on the processing

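Averaged over treatments, the genotype differences of Msx1, Msx2, Id4, Bmp7, Bmpr1a, Id2, Id3 and Smad6 kept their direction in all 26 alternatives. That of Id1 did so in 23 and that of Bmp4 in 24. Msx2 was called in 16 of the 26, Msx1 in 15 and Id4 in 8. Id4 missed the threshold without scaling (limma adjusted p = 0.0542), with a common sum per library (0.0556) and with a pseudocount of 0.1 (0.0510). The 3 averaged calls became 0 with no filter on low values, with pairs as a random effect, with 1 mean per pair (both replicate blocks of treated and untreated libraries), without both control libraries numbered 2 and without both numbered 1, and ranged from 0 to 3 with 1 library left out. They became 4 with library weights, against 12.9% of all genes. With the number 1 to 3 as a replicate block they also became 4, against 11.5% of all genes. The 11 pathway calls became 0 with no filter, with pairs as a random effect, with 1 mean per pair and without both control libraries numbered 2, 1 without both numbered 1, 20 with library weights and 22 with the number 1 to 3 as a replicate block, and ranged from 0 to 16 with 1 library left out. The labels do not state whether a number is shared between genotypes, so whether that block describes a pairing is not settled. Within untreated libraries the 0 calls became 1 (Msx2) with library weights, 2 (Msx2 and Id4) with the number block and 2 (the same genes) without both SMA libraries numbered 2, and stayed 0 with 1 library left out. Within treated libraries the 0 calls became 1 (Msx2) with the number block and 2 (Msx2 and Id4) without both SMA libraries numbered 2, and ranged from 0 to 1 with 1 library left out, the 1 being Msx2 without SMA treated library 2. Calls of treatment and interaction among the members stayed 0 in the alternatives run. Over all genes, 668 averaged calls (421 higher, 247 lower) became 805 (318 higher, 487 lower) with a common sum per library, 1 with no filter, 1953 with weights, 3 with pairs as a random effect and 1 with 1 mean per pair. The alternatives that left out small RNA genes or both libraries of a number were chosen after seeing the data. Cufflinks' interval reached 31.2% of the value to each side for Msx1 and 31.1% for Msx2, the least precise of the members in single libraries.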
